A study of Gallus gallus with 6 samples.

Results

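The repressive histone mark H3K27me3 was compared between control and FGF2-treated ear progenitor tissue by counting its peaks along the chick genome in consecutive 100-kb bins. The comparison used 2 of the 6 libraries of the series, the control and the FGF2 H3K27me3 library, with the 2 H3K27ac libraries as another readout. The tissue was the posterior pre-placodal region (pPPR), the ectoderm from which otic and epibranchial progenitors arise, dissected from chick embryos at stage HH6 (0 somites). Control explants were cultured for 6 h in DMEM-based medium without FGF2, and FGF2 explants for 6 h in the same medium with FGF2 added at 0.25 ng/µl. Each library came from a pool of about 100 tissues and was made by nano-ChIP-seq, a chromatin immunoprecipitation protocol for small cell numbers that amplifies the recovered DNA. Each condition and mark has a single library, so the spread between replicates is unknown, and every comparison is a description of these libraries without a test. The source name of the FGF2 H3K27me3 library reads FGF3, while its title and culture condition read FGF2, and it was taken as FGF2.

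H3K27me3 is written by Polycomb repressive complex 2 and can be read by Polycomb repressive complex 1. In embryonic tissue it is best known from broad domains over the genes of developmental transcription factors that are kept silent in that cell type. The same lysine can be acetylated instead, and H3K27ac is found at active promoters and enhancers, so one histone tail cannot carry both marks. In a pool of cells, however, peaks of both marks can lie at one position.

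Homer, the caller used for the main lists, placed 20827 H3K27me3 peaks in control and 32518 with FGF2, a ratio of 1.56. On chromosomes 1 to 28 and Z there were 19571 control and 30183 FGF2 peaks, 94.0% and 92.8% of each list. Because the lists differ in length, the peak number of a bin was scaled to 10000 peaks of its list, and the scaled ratio is the FGF2 value over the control value. A scaled ratio of 1 therefore means that a bin kept its share of the marked sites, not that its peak number stayed the same. Intervals are exact 95% Clopper-Pearson intervals of that ratio. They treat peaks as independent and cover counting error only. The lists give no read depth, and its part in the longer FGF2 list was not tested. All positions are galGal4.

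The chromosomes were divided into 10032 bins. A bin held a mean of 1.95 control and 3.01 FGF2 peaks, with medians of 2 and 3 and maxima of 25 and 20. H3K27me3 peaks were thus thinly spread. The variance of the bin counts was 1.46 times the mean in control and 1.66 times with FGF2, against 4.58 and 4.16 times for H3K27ac. Both libraries had a peak in 7496 bins and neither had one in 360. A further 1564 bins had FGF2 peaks only and 612 had control peaks only. The largest FGF2 count in a bin without control peaks was 10, and the largest control count in a bin without FGF2 peaks was 6.

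Bins with at least 10 peaks of both lists together were sorted by their scaled ratio, which left 913 bins (9.10% of all) holding 22.4% of the control and 22.3% of the FGF2 peaks. Of these, 501 (54.9%) kept the mark, with scaled counts within 1.5-fold of each other in either direction. In 109 bins (11.9%) the scaled count was at least 2-fold higher with FGF2, and these are called gained. In 78 bins (8.54%) it was at most 0.5 of control, and these are called lost. The other 225 (24.6%) lay between these limits. Without scaling to list length, 318 bins were at least 2-fold higher with FGF2 and 14 at least 2-fold lower. The balance of gains and losses thus depends on the scaling, and also on the minimum count and the fold. With at least 6 peaks there were 527 gained and 552 lost bins, and at a fold of 1.5 there were 179 and 233.

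**Figure D1:**
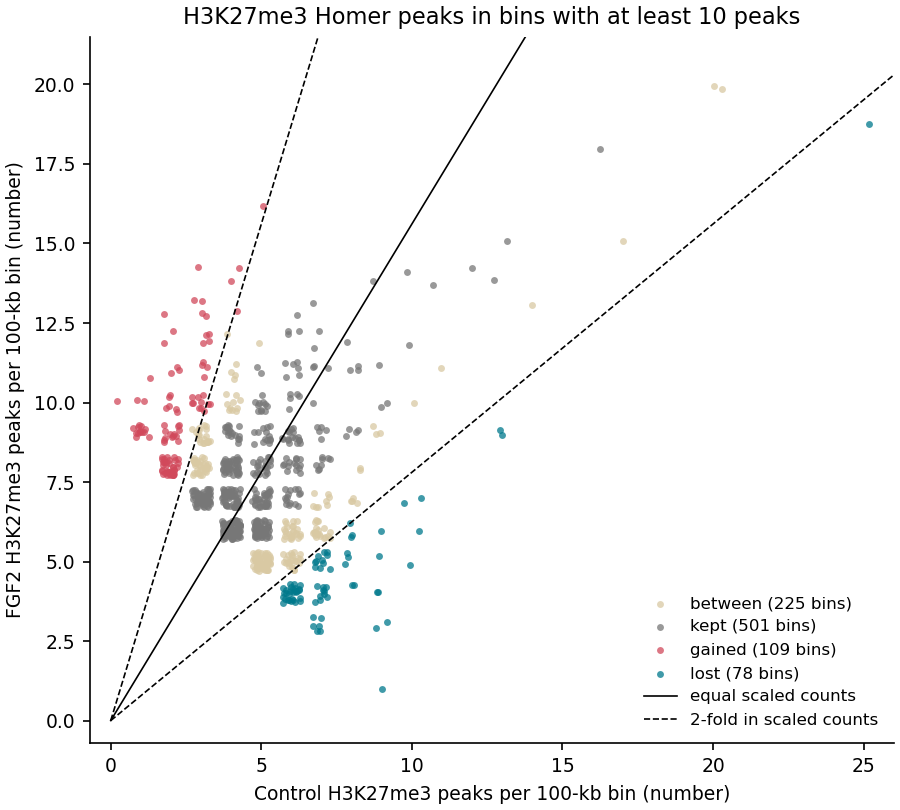
Each point is a 100-kb bin with at least 10 H3K27me3 peaks, with its number of control peaks on the x axis and of FGF2 peaks on the y axis, moved slightly at random so that equal counts can be told apart. Most of the 913 bins lie along the line of equal scaled counts, the 109 gained bins lie near the y axis, and the bins with the most control peaks, up to 25, lie below the line of equal scaled counts.

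Most of the single gains and losses were within counting error. The interval of the ratio lay above 1 in 2 of the 913 bins (0.219%) and below 1 in 4 (0.438%). Among the 9119 bins under the minimum of 10 peaks, which were not classed, it lay above 1 in 10 and below 1 in 63. Because the FGF2 list is longer, an interval below 1 needs fewer peaks than one above 1. Under a limit of 10 peaks these 2 counts therefore do not show an excess of losses. Gained bins held 233 control and 1043 FGF2 peaks, with a median of 2 and 9 per bin. Their control counts were small, with 1 to 3 peaks in 104 bins and 0 in 1. The 2-fold limit largely fixes this, because the FGF2 counts of these bins were only 8 to 16. Lost bins held 581 control and 358 FGF2 peaks, with a median of 7 and 4. In all 78 the unscaled number was lower with FGF2, which the limit for lost bins requires at these list lengths. Kept bins held 2378 and 3784 peaks, with a median of 4 and 7. The limit of 2-fold cut through closely spaced values. Just inside it lay 14 gained bins with ratios of 2.05 to 2.13 and just outside it 21 bins with a ratio of 1.92. On the other side, 4 lost bins had ratios of 0.480 to 0.487, and 24 bins with 6 control and 5 FGF2 peaks lay just outside at 0.534.

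The loci that the study displayed for its ChIP-seq data were followed first, because their genes are known. The bins were those that hold the displayed window, and the 500 kb on either side were added after the lists had been seen. Spry1 and Spry2 encode Sprouty proteins, feedback inhibitors of FGF receptor signalling. The Spry1 bin, chr4:52700001-52800000, had 2 control and 1 FGF2 H3K27me3 peaks, and 0 control and 15 FGF2 H3K27ac peaks. With its surroundings (1.1 Mb) the H3K27me3 count was 24 in control and 19 with FGF2, a scaled ratio of 0.507 (0.263 to 0.966). H3K27ac in the same 1.1 Mb went from 15 to 67 peaks. The Spry2 bin, chr1:151800001-151900000, had 1 control and 0 FGF2 H3K27me3 peaks, and its 1.1 Mb had 32 and 24, a ratio of 0.480 (0.271 to 0.842), beside 13 and 55 H3K27ac peaks. Around both Sprouty genes the longer FGF2 list thus held fewer H3K27me3 peaks than the control list, and more H3K27ac peaks.

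Hesx1, a homeobox repressor of the early anterior placodes and forebrain, lay in a bin without any H3K27me3 peak, chr12:8500001-8600000. Its 1.1 Mb had 16 control and 7 FGF2 H3K27me3 peaks, a ratio of 0.280 (0.0975 to 0.720), and 27 and 34 H3K27ac peaks. These were the 3 of the 9 loci whose interval lay below 1, and none lay above. Across the genome, 16 of 893 consecutive 1.1-Mb windows with at least 20 peaks (1.79%) had an interval below 1 and 18 (2.02%) one above 1, with ratios between 0.605 and 1.60 from the 5th to the 95th percentile. The loci were picked by the study with its H3K27ac data in view and are not a sample of the genome. The result also depends on the width taken. With 200 kb on either side the interval lay below 1 only at Spry1, where 12 control and 5 FGF2 peaks gave a ratio of 0.267 (0.0737 to 0.814). With 1000 kb it lay below 1 at Spry1 and Hesx1, and with 2000 kb only at Spry1, where the ratio was 0.697 (0.508 to 0.956).

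At the other 6 loci the intervals included 1, which on so few peaks does not show that the mark was unchanged. Foxi3, a forkhead factor of otic and epibranchial progenitors, had 11 control and 10 FGF2 peaks in its 2 bins, chr4:85500001-85700000, and 40 and 64 in 1.2 Mb, a ratio of 1.02 (0.680 to 1.56), while H3K27ac in the 2 bins went from 11 to 32 peaks. The Cxcl14 bin, chr13:14600001-14700000, holds the gene of a chemokine. It counted as lost with 6 control and 4 FGF2 peaks, but the interval of 0.427 was 0.0886 to 1.80. H3K27ac in that bin numbered 5 and 12 peaks.

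Pax6, the paired-box regulator of eye and lens, had 7 control and 9 FGF2 H3K27me3 peaks in chr5:5200001-5300000. This was a kept bin with a ratio of 0.823 (0.273 to 2.60), and H3K27ac numbered 9 and 6. The Dlx5/6 bin, chr2:24500001-24600000, which holds a pair of homeobox genes of the placode territory, had 3 and 2 H3K27me3 peaks and 9 and 8 H3K27ac peaks. Its 1.1 Mb had 24 and 21 H3K27me3 peaks, a ratio of 0.560 (0.297 to 1.05). The zinc-finger factor Gata3 had 11 and 14 H3K27me3 peaks in its 2 bins, chr1:4200001-4400000, and 14 and 7 H3K27ac peaks. In 1.2 Mb it had 39 and 70 H3K27me3 peaks, a ratio of 1.15 (0.766 to 1.75). The 3 bins of Eya2, a transcriptional co-activator and phosphatase of the placodes, chr20:5800001-6100000, had 8 H3K27me3 peaks in each library and 23 and 27 H3K27ac peaks. At none of these last 4 loci did the interval of either width leave 1. The paper describes a gain of H3K27me3 with FGF2 in its browser tracks of these loci, Eya2 excepted. Scaled numbers of peaks are a different measure from track height, so that gain was not tested here. Unscaled, MACS2, the other caller, covered 1.655 kb of the Pax6 bin in control and 6.689 kb with FGF2. In the 2 Gata3 bins it covered 0.41 and 8.272 kb and 0 and 2.817 kb, and in the Dlx5/6 bin 0 and 1.451 kb. The 3 Eya2 bins had 1.018 and 9.244 kb, 0 and 4.688 kb, and 0 and 0.246 kb. Its whole FGF2 list had 24.2 times as many peaks as that of control. The covered length was 1.07 Mb in control, without 174 rounded entries, and 17.96 Mb with FGF2.

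Bins with more control peaks mostly had more FGF2 peaks, but fewer than in proportion. The mean number of FGF2 peaks was 1.98 in the 1924 bins without control peaks, 3.02 in bins with 2, 4.59 in bins with 5 and 12.6 in the 20 bins with 10 or more, which had a mean of 13.4 control peaks. As a scaled ratio this is 0.966 in bins with 2 control peaks, 0.588 in bins with 5 and 0.602 in those with 10 or more. Sorting bins by their own control count favours such a fall, and sorting by FGF2 count gave the reverse. Bins with 8 FGF2 peaks had mean scaled counts of 1.61 in control and 2.46 with FGF2, and those with 12 had 2.40 and 3.69. The fall therefore does not show that strongly marked bins lost share. A bin was called dense at 4 times the mean or more, that is from 8 control or 13 FGF2 peaks. By this rule 57 bins were dense in control, 24 with FGF2 and 12 in both, which is 21.1% of the 57 and 12 of the 24. Of the 57 bins dense in control, 22 were lost, 19 kept and 15 between, 1 was below the minimum for classing, and all 57 had a ratio below 1, a direction that choosing bins by a high control count favours. The 12 bins dense in both, on 9 chromosomes, held 180 control and 190 FGF2 peaks. At the level of single peaks, 67.2% of their control and 63.7% of their FGF2 peaks overlapped a peak of the other library by at least 1 bp, against 18.9% and 12.2% over all bins. These bins were chosen for a high count in both libraries, so the shares describe them and do not measure retention. Their scaled ratios were 0.487 to 0.996. Their median H3K27ac count was 1 in control and 2.5 with FGF2, against 2 in each over all bins.

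The densest stretch of the genome lay on chromosome 27. The bin chr27:3600001-3700000 had 25 control and 19 FGF2 peaks and the bin before it 20 in each library, while the bin after it had 5 and 9. The first of these had the largest scaled difference of the lost bins, with a ratio of 0.487 (0.253 to 0.920), although 16 of its 25 control peaks were found again with FGF2. MACS2, the other caller, placed 14 control and 17 FGF2 peaks there, and the length they covered was 45.8 kb in control and 48.5 kb with FGF2. These MACS2 values are not scaled to the length of the lists. H3K27ac in this bin numbered 1 and 5 peaks. When MACS2 peaks were joined across gaps of up to 3 kb, the longest domain of each library lay here, from 3564473 to 3670775 in control (18 peaks, 106 kb) and from 3548513 to 3664555 with FGF2 (27 peaks, 116 kb). In Homer, the longest control domain was also here, from 3598024 to 3630538, with 12 peaks, and held 10 FGF2 peaks.

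**Figure D2:**
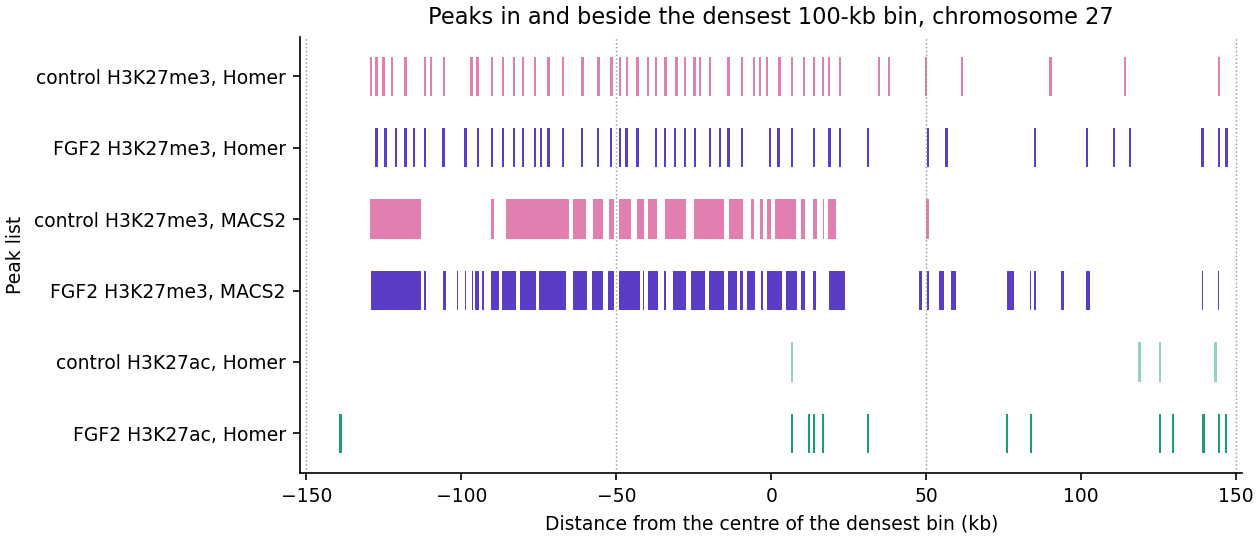
Peaks in the densest bin on chromosome 27 and in the bins beside it, drawn to scale against the distance in kb from the centre of that bin. Dotted lines mark the bin borders. Each row is 1 list, from Homer and MACS2 for H3K27me3 and from Homer only for H3K27ac. The densest bin holds 25 control and 19 FGF2 Homer peaks of H3K27me3, and the bin to its left 20 in each library. In both libraries these peaks thin out beyond 22.7 kb to the right of the centre. H3K27ac peaks lie mostly to the right of the centre, from 6.30 kb on, among the H3K27me3 peaks as well as beyond them.

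The bins dense in both libraries included others away from chromosome 27. On chromosome 13 the bin chr13:1100001-1200000 had 20 peaks in each library and chr13:200001-300000 had 17 control and 15 FGF2 peaks. On chromosome 5 the bin chr5:35900001-36000000 had 14 and 13. Of the kept bins, chr10:15300001-15400000 ranked first, with 16 control and 18 FGF2 peaks, of which 12 were shared, and a ratio of 0.721 (0.347 to 1.51). The 10 leading kept bins lay on 8 chromosomes, had 8 to 16 control and 11 to 18 FGF2 peaks each, and shared 69 of their 110 control peaks with the 138 FGF2 peaks. The most even was chr2:2600001-2700000, with 9 and 14 peaks and a ratio of 0.996 (0.402 to 2.61). Their H3K27ac counts varied, and chr6:22500001-22600000, with 8 and 12 H3K27me3 peaks, had 15 H3K27ac peaks in each library.

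The gained bins with the largest scaled difference went from 0 to 3 control peaks to 10 to 14 FGF2 peaks. The first, chr1:54900001-55000000, had 0 control and 10 FGF2 peaks. With the 0 replaced by a floor of 3 peaks in this bin, it was at least 2.13-fold higher, and the interval began at 1.44. The other classed bin whose interval lay above 1 was chr1:100400001-100500000, with 1 and 11 peaks and a ratio of 7.05 (1.02 to 303). The interval is this wide because a single control peak sets it. Next by difference stood chr3:107400001-107500000 with 2 and 13 peaks, chr17:2900001-3000000 with 3 and 14, and chr3:15500001-15600000 with 2 and 12. In chr5:52200001-52300000 there were 2 and 12 H3K27me3 peaks and also 1 control and 10 FGF2 H3K27ac peaks. Of its 12 FGF2 H3K27me3 peaks, 6 lay in 1 domain from 52255197 to 52269956, where control had 1. Altogether the 10 leading gained bins had 18 control and 118 FGF2 peaks. In the 6 of them in which MACS2 positions could be used, MACS2 had 0 control peaks and 47 FGF2 peaks. This adds no support, because MACS2 also had 0 control peaks in 489 of the 683 usable classed bins, and in 38 of the 63 lost ones.

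Among the lost bins the lowest ratio was that of chr13:3100001-3200000, with 9 control peaks and 1 FGF2 peak, a ratio of 0.0712 (0.00162 to 0.514). None of the 9 control peaks overlapped the remaining FGF2 peak, MACS2 had 0 and 1 peaks, and H3K27ac was at 3 peaks in both. The intervals of chr2:116900001-117000000 and chr2:127500001-127600000, each with 9 and 3 peaks, also lay below 1, with an upper bound of 0.855. With the chromosome 27 bin these are the 4 classed bins whose interval lay below 1. In the other leading lost bins many peaks remained, for example 13 control and 9 FGF2 peaks in chr7:15700001-15800000 and in chr28:2200001-2300000. The bin next to the former, chr7:15800001-15900000, was kept with 12 and 14 peaks. The 10 leading lost bins together had 116 control and 63 FGF2 peaks.

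**Figure D3:**
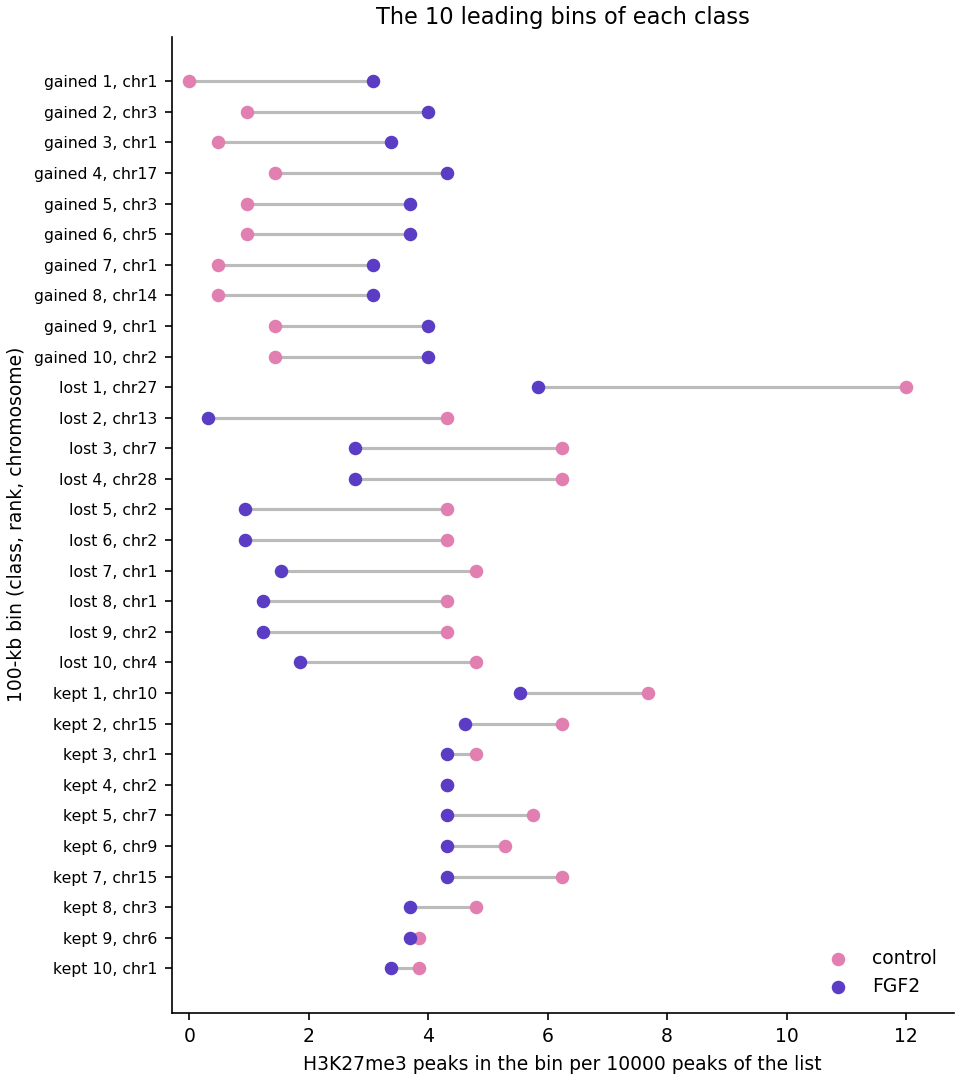
Scaled H3K27me3 counts, in peaks per 10000 peaks of the list, for the 10 leading bins of each class, with control and FGF2 joined by a line and the chromosome beside each rank. Among the gained bins the scaled count was 0 to 1.44 in control and 3.08 to 4.31 with FGF2. The lost bins are led by the chromosome 27 bin, at 12.0 and 5.84. In the kept bins the FGF2 value is the lower one throughout, with ratios of 0.690 to 0.996.

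The MACS2 peaks of the same libraries were set beside the classes as a check. Its control list is short, with 1097 peaks against 26538 with FGF2, a ratio of 24.2, so that unscaled it had more FGF2 than control peaks in 80 of 80 gained, 61 of 63 lost and 374 of 376 kept bins in which its positions could be used. Scaled to its own lists outside the rounded positions, the order of the classes was the same as in Homer. Gained bins had 13 control and 557 FGF2 MACS2 peaks, a scaled ratio of 1.81 (1.05 to 3.42). Kept bins had 198 and 2312, a ratio of 0.493 (0.426 to 0.573), and lost bins 67 and 291, a ratio of 0.183 (0.140 to 0.243). Over all bins the ratio was 0.889 (0.832 to 0.951), so that the kept bins lay below the whole in MACS2. Both callers used the same reads, so this order is not independent of the Homer counts that formed the classes.

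Gained and lost bins formed no run of more than 2, and kept bins formed longer runs in a few places. The longest run of adjacent gained bins was 2, and the same held for lost bins, with 3 such pairs each. The next bin was gained after 3 of the 109 gained bins, of which 37 had a classed neighbour, so that 8.11% of these neighbours were gained against 11.9% of all classed bins. It was lost after 3 of the 78 lost bins, of which 22 had a classed neighbour, or 13.6% against 8.54%. After a kept bin, 81 of 141 classed neighbours were kept (57.4%), against 54.9% of all classed bins. Across all bins the FGF2 minus control difference of scaled counts had a Pearson correlation of 0.035 with that of the next bin. The bin counts themselves had 0.197 in control and 0.319 with FGF2, and H3K27ac 0.592 and 0.563. These correlations are across bins of the same libraries, which are not replicates, and describe these libraries only. With so few peaks per bin, counting error pulls the correlation of the difference towards 0. The low value therefore cannot show whether changes extend over neighbouring bins.

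The longest kept run covered 7 bins, chr4:89400001-90100000, near the end of the chromosome. Its bins had 5, 6, 8, 4, 3, 6 and 7 control peaks and 8, 9, 11, 7, 7, 12 and 10 FGF2 peaks, 39 and 64 in all and a ratio of 1.05 (0.695 to 1.61). A run of 5 bins at chr15:12000001-12500000 had 39 and 54 peaks (0.887, 0.577 to 1.38), most of them in a central pair of bins with 13 and 13 in control and 14 and 15 with FGF2. The third run, chr1:2300001-2700000, covered 4 bins with 20 and 33 peaks (1.06, 0.589 to 1.94). They lay 200, 200 and 2300 kb from a chromosome end. With bins shifted by 50 kb the longest kept run was 4 bins and the longest lost run 1.

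Pooling the paired bins gave narrower intervals. The gained pair chr1:1300001-1500000 had 4 control and 20 FGF2 peaks (3.20, 1.07 to 12.9), the pair chr1:100300001-100500000 had 4 and 21 (3.36, 1.13 to 13.5), and the pair chr17:3600001-3800000 had 5 and 18 (2.31, 0.825 to 7.94). Of the lost pairs, chr13:3000001-3200000 changed most, from 15 to 5 peaks (0.213, 0.0607 to 0.618). The pairs chr2:66900001-67100000, with 18 and 13 peaks, and chr6:16700001-16900000, with 17 and 11, had upper bounds of 0.999 and 0.938. These pairs were picked as pairs of called bins, so their intervals describe them and test nothing.

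**Figure D4:**
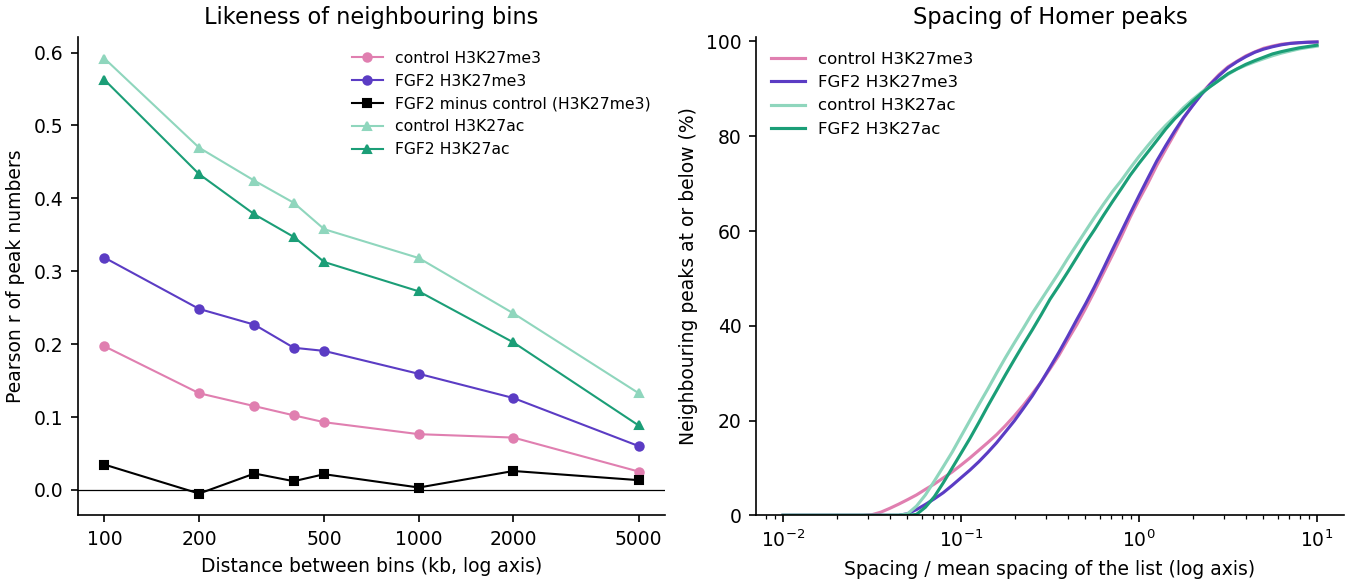
Left, Pearson correlation between the peak numbers of bins a given distance apart (kb, log axis), for each mark and condition and for the H3K27me3 difference; right, cumulative percentage of neighbouring Homer peaks by their spacing divided by the mean spacing of the list (log axis). The difference stays near 0 at every distance, starting from 0.035 at 100 kb, and counting error in bins with few peaks favours such low values. The H3K27me3 counts start from 0.197 and 0.319 and the H3K27ac counts from 0.592 and 0.563. The H3K27me3 spacing curves of both conditions run close together apart from their lower ends.

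The correlation between the libraries was higher in larger bins. The correlation of control and FGF2 bin counts was 0.437 at 100 kb (Spearman 0.368, 10032 bins). It rose to 0.747 in 1000-kb bins and 0.904 in windows of 5000 kb, all 215 of them, with short ones at chromosome ends included. For H3K27ac it was higher at each of these sizes, at 0.815, 0.938 and 0.971. The bins share base composition and mappability. Larger bins hold more peaks, so counting error lowers the correlation less there. Short windows hold few peaks in both libraries, which favours a high value. The rise therefore does not show that the mark is more alike on a larger scale. Of the 215 windows of 5 Mb, 206 held at least 50 peaks, and in all 206 the ratio stayed within 1.5-fold of 1, from 0.671 to 1.49. The lowest was chr5:30000001-35000000, with 62 and 65 peaks, and the highest Z:5000001-10000000, with 59 and 137. The interval lay above 1 in 8 windows, of which 5 were on Z, and below 1 in 8, on 6 chromosomes.

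By chromosome the scaled ratio ran from 0.834 on chromosome 28 to 1.21 on Z. Z, the larger sex chromosome of birds, had 1060 control and 2007 FGF2 peaks, a ratio of 1.21 (1.13 to 1.31), and 15 of its 17 windows of 5 Mb were above 1. MACS2 did not show this rise. It placed 71 of its 921 usable control peaks and 1352 of its 19405 usable FGF2 peaks on Z, which is no larger a share with FGF2. In Homer, Z was the most thinly marked chromosome in control, at 12.9 peaks per Mb, and had 24.4 with FGF2, where chromosome 11 was lower at 22.9. The H3K27ac ratio of Z was 1.17, so both marks took a larger share of their FGF2 Homer lists there. For H3K27ac this was not particular to Z. The H3K27ac ratio was 1.12 on chromosome 1, 1.11 on chromosome 2, 1.07 on chromosome 3 and 1.28 on chromosome 16. On most chromosomes numbered above 7 it was below 1. The sex of the pooled embryos is not stated. Chromosome 1 was higher by a small amount, at 1.05 (1.01 to 1.09). Chromosomes 5 (0.889), 6 (0.837), 7 (0.892) and 13 (0.847) had intervals below 1, and their H3K27ac ratios were 1.08, 0.967, 1.00 and 0.929. Mean peak numbers per bin were somewhat higher towards the chromosome ends in both libraries, at 2.28 and 3.42 within 500 kb of an end against 1.86 and 2.83 beyond 5000 kb, and H3K27ac differed more, at 5.37 and 2.32 in control.

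**Figure D5:**
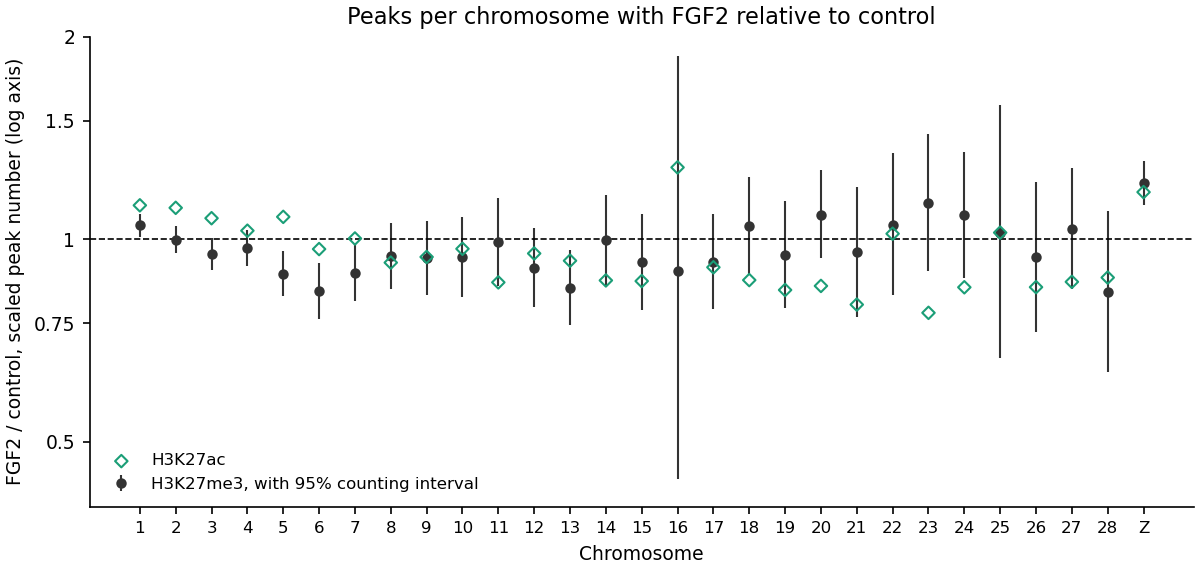
Scaled FGF2 over control ratio of H3K27me3 Homer peaks for each chromosome (filled points with 95% counting intervals, log axis), with the H3K27ac ratio as open diamonds. Z stands highest among the chromosomes with a narrow interval, at 1.21 for H3K27me3 and 1.17 for H3K27ac, chromosomes 5, 6, 7 and 13 lie below 1, and the interval of chromosome 16, with 15 control and 21 FGF2 peaks, spans most of the axis.

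Homer peaks of H3K27me3 rarely lay in dense series. Nearly all peaks were 751 bp wide (98.1% in control and 97.8% with FGF2), and the closest midpoints were 1502 bp apart in both lists. The H3K27ac Homer lists had the same median width and a closest distance of 1501 bp, so these values are not particular to the mark. With peaks of nearly one width, a broad domain can appear only as several separate peaks. The median distance between neighbouring midpoints was 31.2 kb in control and 19.6 kb with FGF2, and the mean 51.2 and 33.2 kb. Relative to the mean these medians were 0.610 and 0.592, so that apart from the longer FGF2 list the spacing was similar, and both were wider than the 0.337 and 0.378 of H3K27ac. Of the control peaks 12.96% could be joined to a neighbour across a gap of up to 3 kb, and of the FGF2 peaks 17.96%, against 36.1% and 36.3% for H3K27ac. Such domains reached 4 or more peaks 38 times among 19571 control peaks and 61 times among 30183 FGF2 peaks, about in proportion to the lists. The closer spacing of a longer list also favours joining, so these values do not show broader domains with FGF2. The FGF2 domain with the most peaks, 8, was on chromosome 13 from 1152515 to 1170906, where control had 6. The next 3, with 7 peaks each, were on chromosome 9 from 11377068 to 11396285 and on chromosome 27 from 3559420 to 3578525, with 6 control peaks each, and on chromosome 6 from 22548337 to 22566330, with 5. The leading FGF2 domains thus mostly lay where control was marked too.

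The scaled H3K27ac ratio was near 1 in each class. In gained bins 457 control and 555 FGF2 H3K27ac peaks gave a scaled ratio of 1.06 (0.937 to 1.21), in lost bins 365 and 408 gave 0.978 (0.847 to 1.13), and in kept bins 2050 and 2486 gave 1.06 (1.00 to 1.13). Bin by bin, the scaled H3K27ac count was higher with FGF2 in 58 and lower in 46 gained bins, and higher in 33 and lower in 43 lost bins. Over all 913 classed bins it was higher in 446 and lower in 429. With MACS2 H3K27ac lists the scaled ratio was 0.956 in gained and 0.954 in lost bins. Across all 10032 bins the H3K27me3 difference and the H3K27ac difference had a Pearson correlation of 0.033. Because most gains and losses of single bins were within counting error, these values cannot decide whether the marks change together. An H3K27ac peak of the same condition overlapped 13.9% of all H3K27me3 peaks in control and 20.01% with FGF2. By class the share was 16.3% and 20.1% in gained, 15.7% and 22.6% in lost, and 16.1% and 22.4% in kept bins. The FGF2 share was thus the higher one in each class, and also in the unclassed bins, at 14.0% and 19.7%. The FGF2 H3K27ac list was the longer one too, with 37405 Homer peaks against 32725 in control, and its part in these shares was not tested.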

How the data were processed

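Reads were cut by their first 9 bases and mapped to galGal4 (Novoalign) by the authors, who called peaks against input with Homer (fold over input 1.5, FDR 0.01) and MACS2 (broad, FDR 0.05). Their deposited lists hold the start and end of each peak, without heights, read numbers or usable scores, so depth is unknown.

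Homer peaks were counted by midpoint in bins from position 0 and scaled to the whole list. The 10 bins per class with the largest scaled difference (for kept bins, the highest lower scaled count), the 3 longest runs per class and the bins of 9 loci displayed by the study are named. No galGal4 annotation was used, so other bins carry no gene names. MACS2 control positions from 100 Mb onwards are rounded in 174 H3K27me3 and 4432 H3K27ac entries, and these stretches were left out of its counts in both conditions. The control MACS2 H3K27me3 list also has 477 blank lines, which are not among its 1097 peaks. Bins, lists and loci were chosen with earlier results of these data known. The steps were tested on simulated peaks (Python 3.11.15, numpy 2.4.6, pandas 2.3.3, scipy 1.17.1). Results were recomputed with other bin sizes and offsets, minimum counts, folds, scalings and callers, and without peaks that overlap H3K27ac. Reads, the other deposited lists and the expression data were not analysed here.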

Additional observations from a re-analysis of the deposited data

How the results depend on the processing

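The numbers of gained, lost and kept bins follow the bin size, the minimum count and the fold. They were 6, 14 and 65 in 50-kb bins, 261, 216 and 1315 in 200-kb bins and 21, 18 and 817 in 1000-kb bins. With at least 6 peaks they were 527, 552 and 1545, and with at least 20 peaks 1, 3 and 11. At a fold of 1.5 there were 179 gained and 233 lost bins, and at a fold of 3 there were 28 and 14. Unscaled counts gave 318 gained and 14 lost bins. Without peaks that overlap H3K27ac there were 59 gained and 262 kept bins. Peaks joined across gaps of up to 3 kb gave 36, 40 and 283. MACS2 lists gave 0 gained, 118 lost and 1 kept bins, from a control list so short that a few peaks make a large scaled count, and the FGF2 over control ratio of peak numbers was 24.2. With bins shifted by 50 kb the longest run was 1 bin for lost and 4 for kept bins. The share of peaks joined to a neighbour was 1.00% in control and 1.39% with FGF2 at a gap of 1 kb, and 37.6% and 51.7% at 10 kb. The correlation between conditions was 0.747 in 1000-kb and 0.904 in 5000-kb bins, the latter chosen after seeing the data. With MACS2 H3K27ac lists, also added then, the H3K27ac ratio was 0.956 in gained, 0.954 in lost and 0.888 in kept bins. Shifted bins, scaling to the median, bins with a 0 left out and bins near chromosome ends left out (the last added after seeing the data) kept the numbers of gained, lost and kept bins within 1.5 times of those reported, at 96 to 130 gained, 71 to 78 lost and 451 to 542 kept bins. No paired analysis was possible because there is 1 library for each condition and mark. With few peaks per bin, a 2-fold difference in a single bin is mostly not detectable, and without depth or replicates none of these counts separates tissue from library.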
